A study of Mus musculus with 19 samples.

Results

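The genes examined were 10 components of the proximal lipopolysaccharide (LPS) receptor pathway among the 56980 genes of the count table. They were taken by name, with earlier results of these data known. *Cd14*, *Ly96* and *Cd180* encode co-receptors, *Myd88*, *Ticam1* and *Ticam2* encode adaptors, and *Irak1*, *Irak2*, *Irak3* and *Irak4* encode the kinases of the IRAK family. Their RNA was measured in MACS-isolated CD11b+ cells from the brains of 19 male mice that were 3 to 4 months old. MACS is a magnetic sort of cells that bind an antibody, here against the integrin CD11b on microglia and other myeloid cells. The olfactory bulb and the cerebellum had been removed. The mice were *PARK7*/DJ-1 KO mice, in which a gene trap in *Park7* is present in all cells of the body, and their wildtype littermates, from a line backcrossed to C57BL/6NCrl. They were perfused 6 h after a single intraperitoneal injection of 4 µg/g body weight of LPS from *E. coli* O55:B5, or of saline (PBS). The groups held 5 KO mice with LPS, 5 KO mice with PBS, 5 wildtype mice with LPS and 4 wildtype mice with PBS, each mouse being 1 library.

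LPS is presented by CD14 to the complex of TLR4 and MD-2, the product of *Ly96*. CD180, also named RP105, is a TLR4-like receptor that pairs with MD-1 (*Ly86*). At the cell membrane the receptor recruits MyD88, which assembles IRAK4, IRAK1 and IRAK2 into a complex that activates NF-kappaB. From endosomes it signals through TRAM (*Ticam2*) and TRIF (*Ticam1*) towards type I interferon. IRAK3, also named IRAK-M, is known as a brake on this pathway in macrophages. Microglia, the resident macrophages of the brain, carry these components.

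Total counts per library ranged from 11936364 to 22788884, and 3 counts corresponded to 0.139 to 0.256 CPM (counts scaled to 1000000 per library), a limit that covers counting error only. *Park7* itself lay between 0.457 and 5.38 CPM in KO and between 20.6 and 32.1 CPM in wildtype libraries, so the genotype labels and the counts went together. The sorted cells carried the microglial markers, of which 11 were measured and none was at 0. The summed marker level was 27497 to 44662 CPM after PBS and 11927 to 18771 CPM after LPS, and 10 of the 11 were lower after LPS in each genotype. Of 6 monocyte markers, 5 were higher after LPS in each genotype. Their summed level in wildtype mice went from a range of 136 to 331 CPM after PBS to 395 to 661 CPM after LPS, and in KO mice from 161 to 324 CPM to 243 to 637 CPM. Of 8 neutrophil markers, 5 were higher in wildtype and 6 in KO mice, and 1 was lower in each genotype, while their sums overlapped between treatments (402 to 605 CPM after PBS, 284 to 717 CPM after LPS). The marker that was lower, *Csf3r*, made up 41.0 to 95.9% of the sum, and the other 7 together were at 19.6 to 113 CPM after PBS and 94.6 to 372 CPM after LPS. In such bulk libraries, fewer cells of a type and less RNA per cell cannot be told apart. Of 6 border macrophage markers, 3 were lower after LPS in each genotype. Summed markers of T, NK and B cells lay between 2.20 and 5.63 CPM after PBS and between 0.512 and 2.53 CPM after LPS, where *Klrd1*, 1 of the 2 that could be tested, was lower in each genotype. The sums of endothelial (70.4 to 1058 CPM), astrocyte (169 to 4201 CPM), oligodendrocyte (477 to 11132 CPM) and neuron markers (11.0 to 93.8 CPM) varied widely within groups. Of 5 endothelial markers, *Slco1a4* and *Cldn5* were lower after LPS in each genotype and *Cdh5* was higher in KO mice. Of 4 astrocyte markers *Gfap*, and of 4 neuron markers *Tubb3*, was higher in each genotype, and none of 4 oligodendrocyte markers was called. Between the genotypes, 1 of the 2 T, NK and B cell markers tested was called higher in KO mice after LPS. No other marker was called in either treatment, under a rule that called 1.31% of the genes tested after LPS and 0.8% after PBS. The median log2FC of the 6 monocyte markers, KO against wildtype after LPS, was -0.39. KO LPS mouse 1 stood apart, with 1.42% of its counts in mitochondrial and ribosomal RNA genes against 0.253 to 0.672% in the other 18 libraries, and with the highest astrocyte, oligodendrocyte and neuron sums of the 19. It was the lowest of the 5 KO LPS mice in 7 of the 10 genes (*Cd14*, *Ly96*, *Cd180*, *Ticam1*, *Irak1*, *Irak2* and *Irak3*). Without it the same 6 genes were called after LPS in KO mice, with log2FC of 3.33 for *Cd14*, 3.44 for *Irak3*, 1.59 for *Myd88*, 0.61 for *Irak2*, -1.03 for *Ly96* and -3.27 for *Cd180*. The difference between the genotypes in *Irak3* after LPS then went from -0.22 to -0.08. The part of these cell types, and of this library's RNA, in the changes below was not tested.

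Per kilobase of exon, the genes covered a wide span of levels in wildtype mice after PBS. *Cd14* stood first at 109.6 ± 19.02 CPM per kb (SD, n = 4), rank 145 of 14469 protein-coding genes. It was followed by *Cd180* at 51.7 ± 14.1, *Irak2* at 24.8 ± 2.90, *Irak1* at 21.5 ± 0.381 and *Myd88* at 14.9 ± 2.67 CPM per kb. *Ticam1* had 9.88 ± 0.646, *Ticam2* 8.44 ± 1.95, *Ly96* 6.04 ± 0.529, *Irak4* 5.07 ± 0.482 and *Irak3* 1.15 ± 0.116 CPM per kb. The ranges over mice overlapped between *Irak2* and *Irak1*, and between each pair of neighbours from *Ticam1* down to *Irak4*, so these neighbours could not be ordered beyond their spread. *Irak3* lay apart as the lowest, at percentile 28.7 of the protein-coding genes. After LPS the order in wildtype mice was *Cd14* (916 ± 336 CPM per kb, SD, n = 5, rank 7), *Myd88* (36.4 ± 3.27), *Irak2* (34.8 ± 10.9), *Irak1* (26.8 ± 3.39), *Ticam1* (13.1 ± 1.39), *Irak3* (12.2 ± 6.51), *Ticam2* (8.10 ± 2.06), *Cd180* (4.55 ± 2.05), *Irak4* (4.43 ± 0.945) and *Ly96* (2.34 ± 0.282). Neighbours in this wildtype order overlapped between *Myd88* and *Irak1*, and again from *Ticam1* down to *Irak4*. *Cd180* thus moved from place 2 to place 8, and *Irak3* from place 10 to place 6. In KO mice the order after PBS was the same, and after LPS it differed from the wildtype order only in that *Irak4* and *Cd180*, whose ranges overlapped, changed places. Levels per kb were divided by the full exonic length. The place of *Ticam2* in these orders is uncertain, since 65.3% of its exonic bases are shared on the same strand with *Tmed7*.

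The promoters of *Cd180* and *Irak3* are printed here because these genes had the largest fall and the largest rise among the 10 in wildtype mice (values below). Each sequence holds the 250 bases before the start of the canonical GENCODE M39 transcript on GRCm39, 5′ to 3′ on the strand of the gene. The first lies at chr13:102829791-102830040 on the plus strand and the other at chr10:120037565-120037814 on the minus strand, in this case inside the annotated span of *Irak3*. Letters in capitals would mark a match to the motifs searched on both strands, and neither sequence had one.
Cd180: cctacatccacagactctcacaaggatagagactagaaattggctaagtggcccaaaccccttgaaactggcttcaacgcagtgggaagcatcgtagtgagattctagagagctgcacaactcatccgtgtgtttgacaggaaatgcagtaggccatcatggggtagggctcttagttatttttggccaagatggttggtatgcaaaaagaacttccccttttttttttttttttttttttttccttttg
Irak3: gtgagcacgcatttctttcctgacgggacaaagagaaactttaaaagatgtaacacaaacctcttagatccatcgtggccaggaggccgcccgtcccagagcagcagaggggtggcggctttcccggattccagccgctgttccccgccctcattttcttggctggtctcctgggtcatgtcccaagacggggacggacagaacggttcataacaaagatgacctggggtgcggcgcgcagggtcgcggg
The motifs were kappaB (GGGNNNNNCC), AP-1 (TGANTCA), PU.1 (GAGGAAGT) and ISRE (GAAANNGAAA). Among 21631 promoters of the same length, 47.8% held the kappaB letters, 6.19% AP-1, 2.09% PU.1 and 3.31% ISRE. Of the 10 genes, 4 held kappaB letters (*Ly96*, *Myd88*, *Ticam2* and *Irak4*), and these 4 did not move in a single direction. The AP-1 letters were found before *Cd14* alone, at -109 and -61 from the start, and those of PU.1 and ISRE before none. A match is a description of letters and not of a bound site.

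Among the co-receptors, *Cd14* rose 8.36-fold in wildtype and 9.30-fold in KO mice 6 h after LPS, while *Cd180* fell about 11-fold and *Ly96* more than 2-fold in both genotypes. *Cd14* (ENSMUSG00000051439, chromosome 18, 36858120 to 36859851, minus strand) encodes the protein that hands LPS to TLR4 and MD-2. Its level was 222, 154, 214 and 169.8 CPM in the 4 wildtype mice with PBS and 1094, 983, 1487, 2094 and 2277 CPM in the 5 with LPS. In KO mice it was 177, 225, 199, 159 and 159 CPM with PBS and 1223, 1685, 1741, 1511 and 2390.4 CPM with LPS. Every LPS mouse lay far above every PBS mouse, and wildtype LPS mice 4 and 5 were the highest of their group. The log2 fold change (log2FC) was 3.06 ± 0.263 (SE, 8.36-fold, edgeR adjusted p = 3.66e-08) in wildtype and 3.22 ± 0.242 (9.30-fold, adjusted p = 5.08e-09) in KO mice.

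*Cd180* (ENSMUSG00000021624, chromosome 13, 102830041 to 102876137, plus strand), whose promoter is printed above, had the opposite course. With PBS it was at 319, 175, 271 and 201 CPM in wildtype and 217, 297, 197, 223 and 235 CPM in KO mice. With LPS it was at 38.0, 18.9, 18.8, 14.6 and 15.8 CPM in wildtype and 11.8, 23.9, 35.8, 16.6 and 19.1 CPM in KO mice. The treatments did not overlap, and wildtype LPS mouse 1 was the highest of its group. *Cd180* fell by 3.50 ± 0.311 on the log2 scale in wildtype (SE, 11.3-fold, edgeR adjusted p = 5.33e-08) and by 3.45 ± 0.303 in KO mice (10.9-fold, adjusted p = 3.29e-08). The values of *Cd180* lay within the range of the 11 microglial markers, whose log2FC ran from -5.09 (*Gpr34*) and -3.66 (*P2ry12*) to 0.25 (*Itgam*) in wildtype mice, with a median of -1.38. In KO mice the same 3 were at -5.04, -3.36 and 0.07, and the median was -1.25.

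*Ly96* (ENSMUSG00000025779, chromosome 1, 16758275 to 16779961, plus strand), which encodes the LPS-binding partner MD-2, rested on few reads, with 31 to 57 counts per KO library and 37 to 53 per wildtype library after LPS. Its level was 8.34, 6.79, 7.23 and 7.51 CPM in wildtype mice with PBS and 3.10, 2.50, 3.19, 2.54 and 3.16 CPM with LPS. KO mice had 5.34, 5.87, 6.35, 7.39 and 7.18 CPM with PBS and 1.74, 2.74, 2.63, 3.19 and 3.90 CPM with LPS. The treatments did not overlap in either genotype. *Ly96* fell by 1.36 ± 0.202 on the log2 scale in wildtype (2.58-fold, edgeR adjusted p = 2.13e-05) and by 1.18 ± 0.193 in KO mice (2.26-fold, adjusted p = 5.20e-05). Summed per kb with *Tlr4*, the receptor itself, *Cd14* made up 57.7% ± 1.74 (SD, n = 4) of the level of the 4 genes in wildtype mice with PBS and 97.7% ± 1.35 (n = 5) with LPS. The share of *Ly96* went from 3.24% ± 0.481 to 0.276% ± 0.0933 and that of *Cd180* from 26.8% ± 2.02 to 0.580% ± 0.409. That of *Tlr4* went from 12.2% ± 0.234 to 1.43% ± 0.871. These shares were not tested. They depend on the other genes in the sum, which *Cd14* raised, so they fell by more than the levels of the genes themselves.

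**Figure D1:**
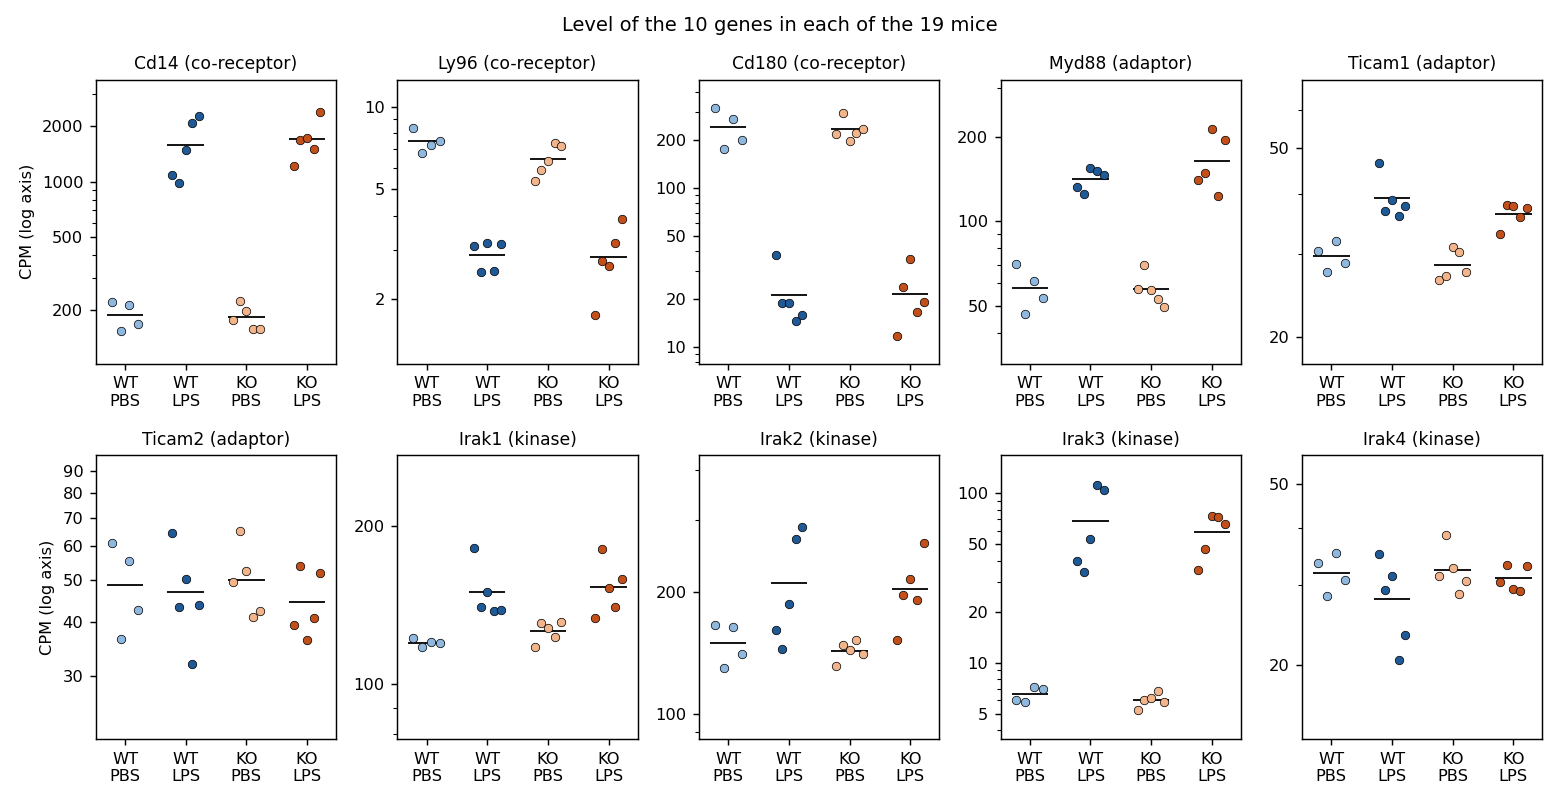
Level of each gene in CPM (log axis, a separate range per panel) in the 19 mice, with wildtype (WT) in blue and KO in orange. Points are mice and lines are group means. *Cd14*, *Myd88* and *Irak3* were higher and *Ly96* and *Cd180* lower in every LPS mouse than in every PBS mouse of the same genotype, while *Ticam2* and *Irak4* overlapped.

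Of the 3 adaptors, *Myd88* alone passed both thresholds, an adjusted p under 0.05 and an absolute log2FC of at least 0.5. *Myd88* (ENSMUSG00000032508, chromosome 9, 119165000 to 119170486, minus strand) encodes the adaptor shared by most TLRs and the IL-1 receptors. Its level was 70.7, 46.5, 61.3 and 53.5 CPM in wildtype mice with PBS and 132, 125, 155, 151 and 146 CPM with LPS. In KO mice it was 57.3, 69.8, 56.9, 52.6 and 49.6 CPM with PBS and 140.0, 149, 213, 123 and 195 CPM with LPS. No LPS mouse reached down to a PBS mouse, and the KO mice with LPS were spread more widely (SD 38.3 CPM) than the wildtype mice with LPS (SD 12.7 CPM). *Myd88* rose by 1.29 ± 0.160 (log2FC ± SE, 2.44-fold, edgeR adjusted p = 2.81e-06) in wildtype and by 1.52 ± 0.149 (2.87-fold, adjusted p = 1.31e-07) in KO mice. On the opposite strand, *Acaa1a* overlaps 16.2% of the exonic bases of *Myd88*, and the strand setting of the counting is not given in the sources used here.

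*Ticam1* (ENSMUSG00000047123, chromosome 17, 56576319 to 56583786, minus strand), which encodes TRIF, was at 30.3, 27.5, 31.9 and 28.6 CPM in wildtype mice with PBS and 46.4, 36.9, 38.8, 36.0 and 37.8 CPM with LPS. The KO mice had 26.4, 26.9, 31.0, 30.3 and 27.5 CPM with PBS and 32.9, 38.0, 37.7, 35.8 and 37.4 CPM with LPS. Although the treatments did not overlap in either genotype, the differences were small. Its log2FC was 0.41 ± 0.0963 in wildtype (edgeR adjusted p = 0.00204) and 0.36 ± 0.0902 in KO mice (adjusted p = 0.00304), past the p threshold and under the fold minimum. *Ticam2* (ENSMUSG00000056130, chromosome 18, 46690358 to 46707600, minus strand), which encodes the bridging adaptor TRAM, overlapped between treatments. Wildtype mice had 61.0, 36.5, 55.4 and 42.7 CPM with PBS and 64.6, 43.5, 50.5, 32.0 and 43.9 CPM with LPS, and KO mice had 49.6, 65.2, 52.5, 41.2 and 42.4 CPM and 39.3, 54.1, 36.2, 40.8 and 52.0 CPM. The 95% intervals of its log2FC were -0.47 to 0.35 in wildtype and -0.56 to 0.22 in KO mice. Of the exonic bases of *Ticam2*, 65.3% are shared on the same strand with *Tmed7*, so its values are uncertain, since reads from the shared part cannot be told apart.

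The largest rise among the 10 genes in wildtype mice was that of *Irak3*, the inhibitory kinase family member whose promoter is printed above (ENSMUSG00000020227, chromosome 10, 119975568 to 120038035, minus strand). It was at 6.00, 5.88, 7.16 and 6.95 CPM in wildtype mice with PBS and at 39.6, 34.3, 53.4, 111 and 105 CPM with LPS. In KO mice it was at 5.28, 6.05, 6.15, 6.81 and 5.89 CPM with PBS and at 35.4, 46.8, 73.2, 72.8 and 66.1 CPM with LPS. The lowest LPS mouse had several times the level of the highest PBS mouse, and wildtype LPS mice 4 and 5 stood above the other 8 LPS mice. *Irak3* rose by 3.40 ± 0.338 (log2FC ± SE, 10.6-fold, edgeR adjusted p = 2.02e-07) in wildtype and by 3.28 ± 0.307 (9.73-fold, adjusted p = 6.91e-08) in KO mice.

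The other kinases moved far less. *Irak4* (ENSMUSG00000059883, chromosome 15, 94441161 to 94479696, plus strand), the kinase that starts the cascade, was at 33.5, 28.4, 35.3 and 30.7 CPM in wildtype mice with PBS and at 35.1, 29.3, 31.4, 20.5 and 23.3 CPM with LPS. The 2 lowest values were those of wildtype LPS mice 4 and 5, which were the highest for *Irak3*. KO mice had 31.4, 38.6, 32.7, 28.7 and 30.6 CPM with PBS and 30.5, 33.2, 29.4, 29.1 and 33.0 CPM with LPS. The treatments overlapped in both genotypes, and the log2FC of *Irak4* was -0.19 (95% interval -0.48 to 0.09) in wildtype and -0.06 (-0.34 to 0.21) in KO mice. *Twf1* and *Pus7l* on the opposite strand overlap 10.3% and 5.41% of its exonic bases. *Irak1* (ENSMUSG00000031392, chromosome X, 73056964 to 73067554, minus strand) encodes the kinase that IRAK4 acts on. Wildtype mice had 123, 117, 120.0 and 119 CPM with PBS and 182, 139.9, 149, 138 and 138 CPM with LPS, and KO mice had 118, 130.4, 128, 123 and 131 CPM and 134, 181, 153, 140.0 and 159 CPM. The treatments did not overlap, with a log2FC of 0.32 ± 0.0982 (edgeR adjusted p = 0.0133) in wildtype and 0.28 ± 0.0921 (adjusted p = 0.0172) in KO mice, under the fold minimum.

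*Irak2* (ENSMUSG00000060477, chromosome 6, 113615386 to 113672470, plus strand), a kinase family member that sustains NF-kappaB signalling, lay at the fold minimum. It was at 165, 129.5, 163 and 140.5 CPM in wildtype mice with PBS and at 161, 144, 186, 269.9 and 289 CPM with LPS. In KO mice it was at 131, 147, 144, 152 and 140.1 CPM with PBS and at 152, 196, 215, 191 and 263 CPM with LPS. The treatments overlapped in both genotypes, since the lowest LPS values lay among the PBS values. Its log2FC was 0.49 ± 0.185 (edgeR adjusted p = 0.0409) in wildtype mice, just under the minimum, and 0.51 ± 0.174 (adjusted p = 0.0216) in KO mice, just over it. In wildtype mice both thresholds were passed, at a log2FC of 0.51 to 0.62, once any 1 of wildtype PBS mouse 1, wildtype LPS mice 1, 2 and 3, KO PBS mice 3 and 5 or KO LPS mice 1 and 4 was left out. In KO mice the call was lost without KO PBS mouse 1 (0.48), KO LPS mouse 3 (0.49) or KO LPS mouse 5 (0.40, adjusted p = 0.0704).

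Counted over the 10 genes, 3 were higher and 2 lower past both thresholds in wildtype mice, where 18.4% and 17.4% of the 18739 genes tested were called higher and lower. In KO mice 4 were higher and 2 lower, against 20.1% and 19% of the genes tested. The 5 genes called in wildtype mice, *Cd14*, *Irak3*, *Myd88*, *Cd180* and *Ly96*, were called in KO mice too, and *Irak2* was the addition. Without the fold minimum, 6 were higher and 2 lower in each genotype, *Ticam1*, *Irak1* and *Irak2* being among the higher, where 22% of the genes tested were higher and 19.7% lower in wildtype mice, and 24.2% and 21.9% in KO mice. By ranges alone, 5 genes were higher and 2 lower without overlap in each genotype. Over the genes tested these shares were 20.8% higher and 17% lower in wildtype, and 16.2% higher and 16.6% lower in KO mice. The median log2FC of the 10 genes was 0.36 in wildtype and 0.32 in KO mice, against -0.06 and -0.01 over the genes tested.

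**Figure D2:**
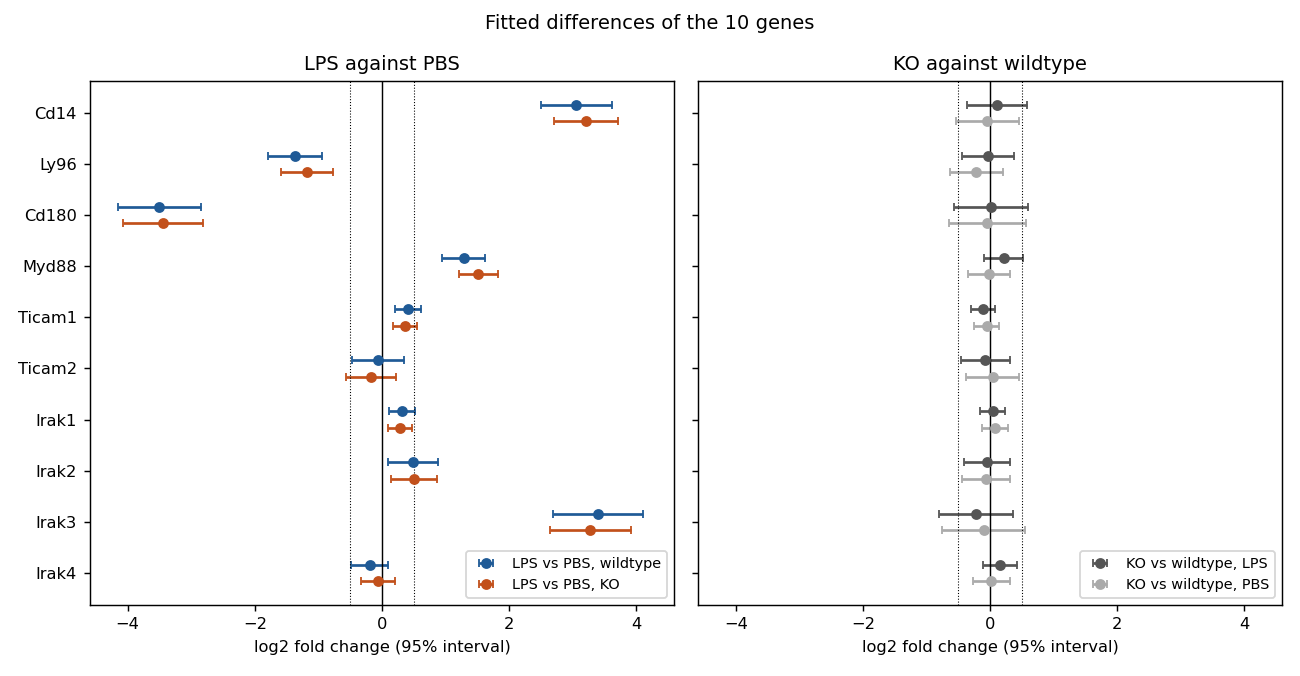
Fitted log2 fold changes with 95% intervals for LPS against PBS (left, wildtype blue and KO orange) and KO against wildtype (right, after LPS dark and after PBS light). Dotted lines mark the fold minimum of 0.5 in either direction. LPS differences ran from -3.50 to 3.40 in wildtype mice, and every interval on the right included 0.

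The make-up of the IRAK family is described by shares. Per kb, *Irak3* made up 2.19% ± 0.219 (SD, n = 4) of the summed level of the 4 *Irak* genes in wildtype mice with PBS and 14.8% ± 5.37 (n = 5) with LPS. In KO mice its share went from 2.03% ± 0.144 to 13.5% ± 3.15 (n = 5 each). The share of *Irak4* went from 9.64% ± 0.313 to 5.97% ± 2.10 in wildtype and from 9.79% ± 0.962 to 6.53% ± 0.918 in KO mice. *Irak1* and *Irak2* together held most of the family in every group, with *Irak2* at 47.1% ± 2.21 after PBS and 43.7% ± 5.62 after LPS in wildtype mice. Among the 3 adaptors, the share of *Myd88* went from 44.8% ± 1.45 to 63.3% ± 4.77 in wildtype and from 44.7% ± 1.69 to 67.5% ± 4.88 in KO mice. That of *Ticam1* went from 30.1% ± 3.08 to 22.7% ± 1.90 and that of *Ticam2* from 25.2% ± 2.00 to 14.0% ± 3.09 in wildtype mice. These shares were not tested, since a share depends on the other genes of its family, and the fitted difference of *Irak4* itself did not pass the test. The adaptor shares further rest on the level of *Ticam2*, which is uncertain because most of its exonic bases are shared with *Tmed7*.

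**Figure D3:**
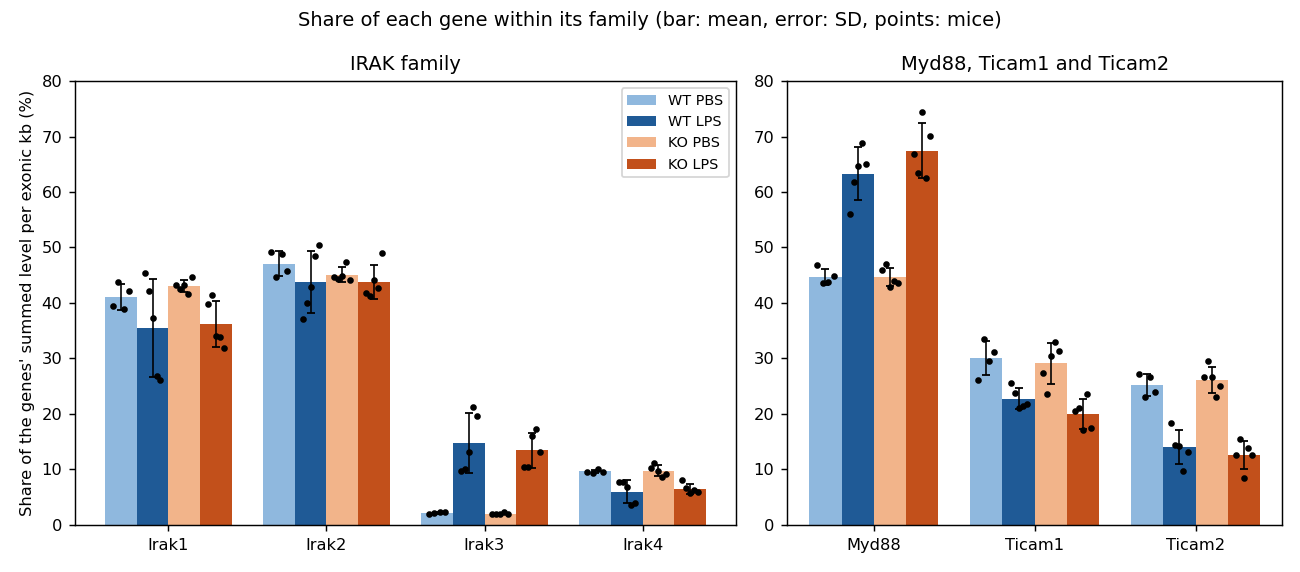
Share of each gene in the summed level per exonic kb of its family, in percent, for the IRAK kinases (left) and the 3 adaptors (right). Bars are group means, error bars are SD and points are mice, with wildtype (WT) in blue and KO in orange. The share of *Irak3* went from about 2% to 14.8% (wildtype) and 13.5% (KO), and that of *Myd88* from 44.8% to 63.3% and from 44.7% to 67.5%. The level of *Ticam2*, and so each adaptor share, is uncertain because most of its exonic bases are shared with *Tmed7*.

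Between the genotypes, none of the 10 genes was called, either 6 h after LPS or after PBS. The rule was an unadjusted p under 0.05 with an absolute log2FC of at least 0.5, under which 1.31% of the genes tested were called after LPS and 0.8% after PBS. Without the fold minimum the count of the 10 genes was still 0, where 2.57% of the genes tested passed after LPS and 1.04% after PBS, and each of the 10 had an edgeR adjusted p of 1. DESeq2, run with the same 4 groups, called none of the 10 either. No gene of the 10 had genotypes that did not overlap, in either treatment, against 0.219% of the genes tested after LPS and 0.971% after PBS. After LPS the KO mice differed most from the wildtype mice in *Irak3*, at a log2FC of -0.22 (95% interval -0.81 to 0.36), and in *Myd88*, at 0.21 (-0.09 to 0.52). After PBS the lowest value was that of *Ly96* at -0.22 (-0.63 to 0.20) and the highest that of *Irak1* at 0.07 (-0.13 to 0.28). A difference of the size seen after LPS in *Cd14*, *Cd180* or *Irak3* thus lay outside the intervals of these comparisons, since the intervals over the 10 genes ran from -0.81 to 0.60 after LPS and from -0.75 to 0.56 after PBS. The narrowest intervals after LPS were those of *Irak1* (-0.16 to 0.23) and *Ticam1* (-0.30 to 0.08). The difference in *Myd88* after LPS went to 0.10 without KO LPS mouse 3 and to 0.14 without KO LPS mouse 5, and that in *Irak3* ran from -0.39 to 0.02 with 1 library left out, the latter without wildtype LPS mouse 4.

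The response to LPS was also compared between the genotypes by an interaction term, that is the log2FC of KO mice less that of wildtype mice. By edgeR's test no interaction reached an adjusted p under 0.05, among the 10 as among the genes tested (0%). At an unadjusted p under 0.05, the count was again 0 of 10, against 0.961% of the genes tested, and DESeq2 called none. *Myd88* had the largest positive value, 0.23 (95% interval -0.22 to 0.68), and *Irak3* the largest negative value, -0.12 (-0.99 to 0.75). That of *Irak3* changed sign when wildtype LPS mouse 4 (0.12) or 5 (0.09) or KO LPS mouse 1 (0.01) was left out, and that of *Myd88* went to 0.12 without KO LPS mouse 3 or wildtype PBS mouse 1. Over the 10 genes the 95% intervals ran from -0.99 to 0.90.

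These genes sit in a pathway of which 37 other genes were examined. In wildtype mice 14 of the 37 were higher and 4 lower after LPS past both thresholds, and in KO mice these were the same 14 and 4 genes. Of the genes tested, 18.4% were called higher and 17.4% lower in wildtype mice, and 20.1% and 19% in KO mice, which also stand beside the counts by role that follow. Their median log2FC was 0.34 in wildtype and 0.36 in KO mice. Of 6 receptor partners, 3 rose and 2 fell. *Tlr2*, a receptor for bacterial lipopeptides, rose by 4.19 in wildtype and 4.34 in KO mice (log2FC), *Tlr1*, which pairs with TLR2, by 2.31 and 2.54, and *Tlr6*, another partner of TLR2, by 0.59 and 0.69. *Tlr4*, the LPS receptor, fell by 1.06 and 1.09 on the log2 scale, and *Ly86*, which encodes the partner of CD180, fell by 0.95 and 0.85. Thus *Tlr4*, *Ly96*, *Cd180* and *Ly86* were lower and *Cd14* and *Tlr2* higher after LPS.

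For *Tlr4* the level was 199, 128, 187 and 139 CPM in wildtype mice with PBS and 116, 84.6, 88.6, 59.4 and 43.2 CPM with LPS. In KO mice it was 156, 183, 168, 148 and 133 CPM with PBS and 61.8, 97.4, 67.6, 73.8 and 69.5 CPM with LPS. The treatments did not overlap, and wildtype LPS mice 4 and 5 were the lowest.

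Among 3 further TIR-domain adaptors, *Pik3ap1*, which links TLRs to PI3K, rose by 1.39 in wildtype and 1.52 in KO mice (log2FC), and *Tirap*, which brings MyD88 to the membrane, by 0.79 and 0.89. *Sarm1*, which counters TRIF, fell by 1.30 and 0.95 on the log2 scale. Of the 13 genes of the MyD88 branch, 2 rose, the ubiquitin ligases *Peli1* (log2FC 1.52 and 1.34) and *Traf6* (0.62 and 0.87), and 11 were not called. Of the 8 genes of the TRIF branch, 4 rose. These were the kinase *Ikbke* (log2FC 5.82 in wildtype and 5.21 in KO mice), its binding partner *Tank* (1.63 and 1.83), *Traf3* (1.14 and 1.20) and the TBK1 adaptor *Azi2* (0.61 and 0.58). Of 7 negative regulators, 3 rose, the deubiquitinase gene *Tnfaip3* (log2FC 3.73 and 3.83), the RNase gene *Zc3h12a* (2.27 and 2.49) and *Socs1*, which curbs cytokine signalling (1.47 and 1.38), and 1 fell, the inhibitory receptor gene *Sigirr* (-1.40 and -1.27). *Sigirr* rested on few reads, with means of 20.8 (wildtype) and 23.8 counts (KO) after LPS and a lowest of 1 in KO mice. Its edgeR adjusted p was 0.0354 in wildtype mice, where the treatments overlapped, and 0.0397 in KO mice. Between the genotypes none of the 37 genes was called after either treatment. At an unadjusted p under 0.05 there were 2 after LPS, *Map3k7* (log2FC 0.20 ± 0.0753) and *Traf3* (0.29 ± 0.123), and 1 after PBS, *Cyld* (0.20 ± 0.0956), each under the fold minimum and with an edgeR adjusted p of 1, where 2.57% of the genes tested passed after LPS and 1.04% after PBS.

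**Figure D4:**
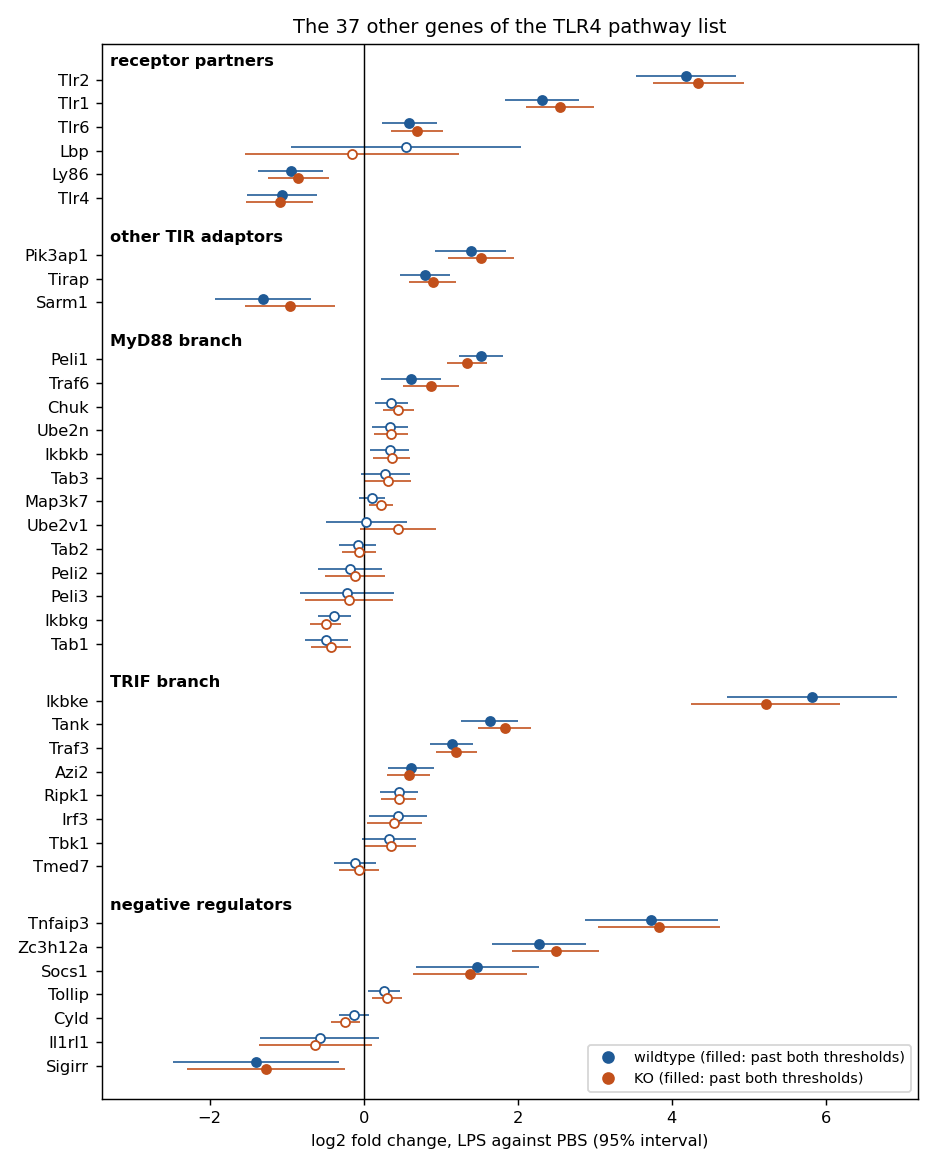
Log2 fold change of LPS against PBS with 95% intervals for the 37 other genes of the TLR4 pathway list, in wildtype (blue) and KO mice (orange), by role. Filled points passed both thresholds. The same 14 genes were higher and the same 4 lower in both genotypes, from *Ikbke* (5.82 in wildtype) to *Sigirr* (-1.40), which rested on few reads.

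Mice of the same group differed from each other, and some of the 10 genes deviated together. Deviations of log2 CPM from the 4 group means over the 19 mice correlated at a Pearson's r of 0.94 (Spearman's rho 0.88) for *Cd14* and *Irak2*, at 0.89 (0.81) for *Irak2* and *Irak3*, at 0.78 (0.66) for *Cd14* and *Irak3*, and at 0.67 (0.73) for *Cd14* and *Myd88*. Without wildtype LPS mice 4 and 5 these r were 0.91, 0.82, 0.66 and 0.74. A further set was formed by *Ticam2* and *Irak4* (r 0.87, rho 0.84), *Cd180* and *Irak1* (0.72, 0.76), and *Ticam1* and *Irak1* (0.72, 0.63). With the 2 mice farthest from the median of the first gene left out, the values of r were 0.80, 0.71 and 0.57. *Irak3* and *Irak4* deviated in opposite directions (r -0.64, rho -0.60), which went to -0.39 without wildtype LPS mice 4 and 5. These are descriptions of the 19 libraries, which share the sort and differ in depth, and 45 pairs were computed.

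The summed marker levels of the libraries varied alongside. Deviations of the microglial marker sum had an r of 0.85 with those of *Ticam2*, 0.84 with *Irak4*, 0.68 with *Cd180* and 0.61 with *Myd88*, but 0.09 with *Cd14* and -0.44 with *Irak3*. The neutrophil marker sum had an r of 0.80 with *Ly96*, 0.66 with *Irak2* and 0.63 with *Irak3*. Without *Csf3r*, left out after its values were seen, these were 0.53, 0.52 and 0.54. *Csf3r* is itself among the genes with deviations most like those of *Ly96* (r 0.93). *Ly96* had an r of -0.85 with the astrocyte marker sum, -0.79 with the neuron sum, -0.78 with the endothelial sum and -0.67 with the oligodendrocyte sum. Other genes had negative values too, such as -0.76 for *Ticam2* with the monocyte sum and -0.67 for *Ticam1* with the endothelial sum. In the wildtype LPS mice 4 and 5, the microglial marker sums were 11927 and 12222 CPM, the lowest of that group, against 15269 to 18771 CPM in the other 3. The part of these differences in the levels of the 10 genes was not tested.

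**Figure D5:**
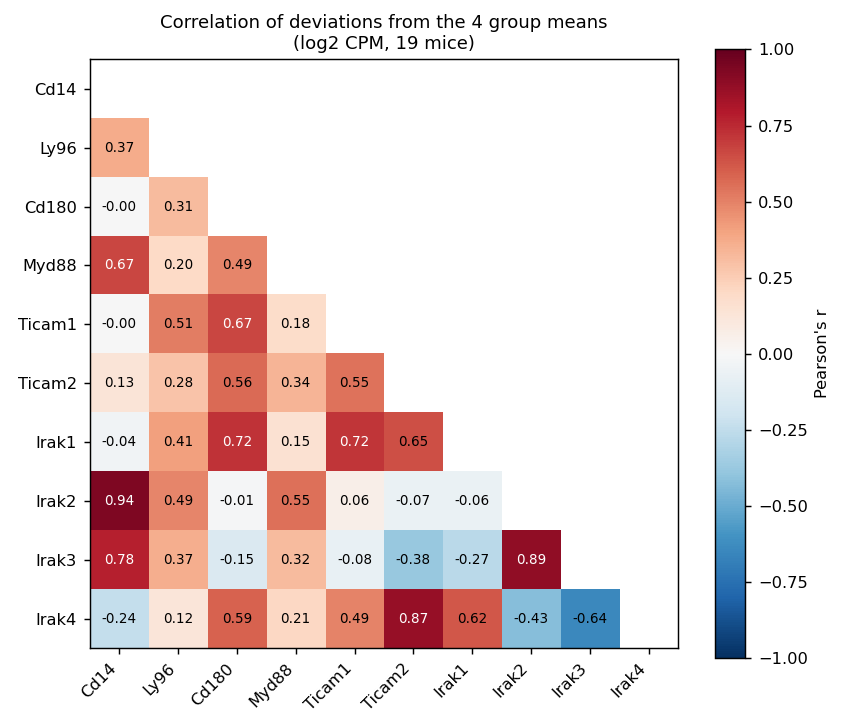
Pearson's r between the deviations of each pair of genes from the 4 group means (log2 CPM, 19 mice), from -1 (blue) to 1 (red). *Cd14*, *Irak2* and *Irak3* varied together within groups (0.78 to 0.94), as did *Ticam2* and *Irak4* (0.87), while *Irak3* and *Irak4* had an r of -0.64.

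Over all protein-coding genes tested, the genes with the most similar deviations from the group means were named for each of the 10, again as a description over 19 mice. For *Irak2* these were *Lacc1* (r 0.97), *Malt1*, which encodes a paracaspase of NF-kappaB signalling (0.96), and *Lrrc25* (0.95). *Malt1* (0.92) was also near *Irak3*, with *Mtm1* (0.93) and *Cd80*, a costimulatory ligand (0.92). For *Cd14* they were *N4bp1* (0.96), *Vasp* (0.96) and *Ptafr*, the receptor for platelet-activating factor (0.95). *Myd88* had *Tox4* (0.95), *Ppp1r18* (0.93) and *Adora3* (0.93), and *Cd180* had *Mctp1* (0.94), *Nf1* (0.93) and *Frmd4a* (0.93). *Ly96* deviated with *Septin2* (0.93), *Csf3r*, the receptor for G-CSF (0.93), and *Notch2* (0.92). *Ticam2* had *Sema4d* (0.95), *Was*, a regulator of actin in blood cells (0.94), and *Usp8* (0.94), while *Irak4* had *Plscr3* (0.95), *Rgs19* (0.93) and *Camk1* (0.93). The nearest to *Ticam1* were *Traf5* (0.88), *Nin* (0.87) and *Primpol* (0.86), and to *Irak1* they were *Mettl5* (0.91), *Qrsl1* (0.89) and *Pcm1* (0.89).

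By levels over the 19 mice, which reflect the split between PBS and LPS first, the genes nearest to *Cd14* included *Tlr2* and *Mapkapk2*, a kinase downstream of p38 (r 0.997 each). *Irak3* was nearest to *Pstpip2*, *Mmp14* and *Cybb*, a subunit of the phagocyte NADPH oxidase (r 0.99 each). *Cd180* was nearest to *Snx29*, *Ttc7* and *Col15a1* (0.99 each), *Myd88* to *Ptpn1*, *Pisd* and *Actr3* (0.99 each), and *Ly96* to *Arhgap17* (0.97), *Ptpro* (0.97) and *Dennd1c* (0.97). The likeness was lower for the genes that moved little. *Ticam1* had *Hhat* (0.96), *Rrbp1* (0.95) and *Ddx39b* (0.95), *Irak2* had *Malt1* (0.95), *Icosl* (0.95) and *Cd80* (0.95), and *Irak1* had *Qrsl1* (0.94), *Peak1* (0.93) and *Secisbp2* (0.92). *Irak4* was nearest to *Rab3il1* (0.90), *Elk3* (0.89) and *Tnfrsf21* (0.87), and *Ticam2* to *Usp21* (0.89), *Fkbp15* (0.89) and *Zfyve19* (0.88).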

How the data were processed

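CD11b+ cells of 19 mice were sequenced as stranded, ribosome-depleted total RNA, with reads trimmed by Cutadapt. The authors deposited raw counts per gene, aligned with STAR 2.7.9a to GRCm39 and not normalized. The strand setting of the counting is not given in the sources used here. The counts entered edgeR 4.0.16 (R 4.3.3). Low genes were removed by filterByExpr, set to a minimum of 10 counts and 15 in total, and libraries were scaled with TMM. One quasi-likelihood model with the 4 groups was fitted over the 19 libraries. Of 34986 genes with at least 1 count, 18739 were tested (14469 protein-coding), with Benjamini-Hochberg adjustment over these. LPS against PBS was called at an adjusted p under 0.05 and an absolute log2FC of at least 0.5, and KO against wildtype at an unadjusted p under 0.05 with the same fold minimum, as in the study. CPM are counts scaled to 1000000 per library after TMM, and log2 CPM used a prior count of 2. GENCODE M39 named 56236 of the 56980 genes and gave positions, exonic lengths and promoters. No 2 libraries of a group were alike within sampling noise (chi-square at least 7.04 per degree of freedom). The fit was also run on simulated counts. These had the same relative spread for every gene and no deviations shared between genes or libraries, so they cannot show how the fit deals with these in the real libraries.

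The 10 genes, the pathway list and the marker lists were chosen with earlier results of these data known. All 10 genes passed the filter and are named with values. So are the called pathway genes with the largest changes in wildtype mice (at most 4 per role), *Tlr4* and *Ly86*, and for each of the 10 the 3 protein-coding genes with the highest r. The microglial marker *Fcrls* was not matched by name, which left 11 of 12. Alternatives were DESeq2 1.42.0, its size factors in edgeR, other filters, thresholds and samples in the fit, a replicate block, and each library left out in turn. Promoters were printed for the genes called after LPS in both genotypes, save those on chromosome 18 or with an annotated UTR in the window. One gene that the rule on likeness to a member selects is not reported here.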

Additional observations from a re-analysis of the deposited data

Results flagged for a closer look

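In 3 of the 40 combinations of gene and group, the highest mouse stood apart from the rest of its group by Dixon's criterion, which chance alone meets in about 1 in 20 groups. All were wildtype LPS mouse 1. It had 38.0 CPM of *Cd180*, against 14.6 to 18.9 CPM in the other 4 wildtype LPS mice. It had 46.4 CPM of *Ticam1*, against 36.0 to 38.8 CPM, and 182 CPM of *Irak1*, against 138 to 149 CPM. The same library had the highest microglial marker sum of its group (18771 CPM) and the lowest oligodendrocyte marker sum of the 19 libraries (477 CPM). Without it, *Cd180* kept its call after LPS in wildtype mice, as it did with any other library left out (log2FC -3.82 to -3.34).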

How the results depend on the processing

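The calls of *Cd14*, *Cd180*, *Irak3*, *Myd88* and *Ly96* after LPS held in both genotypes under all 8 alternatives and in all 19 fits with a library left out. Without the fold minimum, 8 genes passed in each genotype, against 22% of the genes tested higher and 19.7% lower in wildtype mice, and 24.2% and 21.9% in KO mice. In KO mice *Irak2* was lost with no low-count filter (log2FC 0.47) and with at least 10 counts in every library (0.45), and in wildtype mice it was gained with ribosomal RNA and mitochondrial genes left out (0.51). The cause was not tested. With a library left out, the LPS difference turned its sign in *Ticam2* in wildtype (-0.20 to 0.066) and in *Irak4* in KO mice (-0.10 to 0.0076), neither of them called. Between the genotypes signs turned in 7 of the 10 genes after LPS, among them *Irak3* (-0.39 to 0.019), and in 5 of 10 after PBS, and those of the interaction in 6 of 10, among them *Irak3* (-0.29 to 0.12). None of these values was called in any such fit. The count of pathway genes called in KO against wildtype mice after LPS was 0 to 1, the 1 being *Socs1* without KO LPS mouse 5. Over all genes tested, the calls of KO against wildtype after LPS, 245 in the fit reported, were 105 with the 2 groups alone, 111 with at least 10 counts in every library, 434 without KO LPS mouse 5 and 854 with no filter, and those after PBS, 150, were 58 with at least 10 counts in every library and 680 with no filter. At an adjusted p under 0.05, 2 genes remained after LPS, *Park7* and *Tnfrsf9* (named after their values were seen), and *Park7* alone after PBS.

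The replicate numbers of the labels join different mice, and same-numbered libraries did not all deviate together (r -0.04 to 0.58 in wildtype and 0.03 to 0.54 in KO mice, LPS against PBS). With these numbers as a block, 5 genes were called after LPS in each genotype, *Irak2* in KO mice being lost (log2FC 0.48), and the interaction of *Irak3* went to 0.034. The block changed no other call of the 10 genes, and over all genes the calls after PBS between genotypes went from 150 to 234. In LPS against PBS, 5 of 8 wildtype and 6 of 10 KO libraries correlated best with their own number. In KO against wildtype these were 1 of 10 after LPS and 3 of 8 after PBS. Each library was set against the 4 or 5 libraries of the other group. What same-numbered libraries share in LPS against PBS was not tested. Low depth limits *Ly96*, at 31 to 57 counts per KO library after LPS.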
